A study of Mus musculus with 6 samples.

Results

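Cxcl1, Cxcl2, Cxcl12 and Ccl20 are chemokines, and Ccr7 is a chemokine receptor. These 5 genes were followed in MLE-15, a cell line of mouse lung epithelium that carries the large T antigen of SV40. They were 5 of 908 named genes and were covered by 6 of the 1246 probe sets in the deposited table. Their NCBI gene IDs are 14825 (Cxcl1), 20310 (Cxcl2), 20315 (Cxcl12), 20297 (Ccl20) and 12775 (Ccr7). They were selected by name from earlier results of these data, in which Ccr7, Ccl20 and Cxcl2 lay among the largest differences between array number 1 and the rest and Cxcl1 was named for its PMA difference. The number contrast of all 5 genes and the PMA difference of Cxcl1 are therefore given as a description, without a test.

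The groups were 3 arrays of control cells and 3 arrays of cells stimulated with PMA (phorbol 12-myristate 13-acetate, an activator of protein kinase C). The series design gives 10 nM for 24 h, and the labels add no other agent or genotype in either group. Each group holds the replicate numbers 1, 2 and 3, and all arrays come from 1 cell line. The labels do not state separate cultures, so the p-values speak for these arrays only, and their spread may be technical. Values are RMA summaries on the log2 scale, so a difference of 1 unit is a doubling of signal. Array medians lay between 5.64 and 5.71 and lower quartiles between 4.32 and 4.43. Levels of different probe sets cannot be ranked against each other.

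Chemokines are small secreted proteins that bind glycosaminoglycans on cell surfaces and guide leukocytes through G protein-coupled receptors. Cxcl1 and Cxcl2 recruit neutrophils through Cxcr2. Ccl20 attracts cells that carry Ccr6, among them immature dendritic cells and Th17 cells, and airway epithelium releases it when inflamed. Cxcl12 is a homeostatic chemokine that binds Cxcr4 and Ackr3. Ccr7 binds Ccl19 and Ccl21 and guides dendritic cells and naive T cells to lymph nodes. Phorbol esters can raise inflammatory chemokine transcripts through NF-kB and AP-1.

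The line's epithelial identity could be checked on few genes, since 2 of 14 listed lung epithelial markers were measured. The surfactant protein gene Sftpd averaged 5.42 in control and 5.38 in PMA arrays, near the array medians. Sftpa1 averaged 3.53 and 3.49, below the lower quartile of every array. No probe set in the table serves as a background control, so neither gene was called present or absent.

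Arrays of number 1 stood far from the others for 4 of the 5 genes. The neutrophil chemokine Cxcl2 stood at 4.40 in control 1, 7.51 in control 2 and 7.73 in control 3. Its PMA values were 4.73, 7.54 and 7.72 in the same order. Both number 1 arrays therefore lay about 3 log2 units under the other 4, whether or not PMA was given. The mean of Cxcl2 was 4.57 in number 1 against 7.62 ± 0.12 (SD, n = 4) in the other numbers, which makes a difference of -3.06 log2 units (SE 0.100), or 8.33-fold in signal.

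Ccl20, the ligand of Ccr6, stood at 4.95, 8.17 and 8.36 in control 1, 2 and 3. It stood at 5.11, 7.80 and 8.15 in PMA 1, 2 and 3. The number 1 pair was again low and the control and PMA values of each number lay close together. Its number 1 mean was 5.03 against 8.12 ± 0.23 (SD, n = 4), a difference of -3.09 log2 units (SE 0.12), or 8.50-fold in signal.

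The receptor gene Ccr7 stood at 4.97, 8.32 and 8.42 in control 1, 2 and 3. It stood at 5.16, 8.08 and 8.35 in PMA 1, 2 and 3. Its number 1 mean was 5.07 against 8.29 ± 0.15 (SD, n = 4), a difference of -3.22 log2 units (SE 0.10), or 9.34-fold in signal. In number 1 the signals of Cxcl2, Ccl20 and Ccr7 were all under the array medians, and in numbers 2 and 3 all were above them. Fewer cells with a transcript and less of it per cell cannot be told apart in such bulk RNA.

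Cxcl1, the other neutrophil chemokine, stood at 6.44, 7.54 and 7.90 in control 1, 2 and 3. Its PMA values were 6.85, 8.00 and 7.67. Number 1 was lowest in both groups here too, by a smaller distance and with its signal still above the array medians. The number 1 mean was 6.65 against 7.77 ± 0.21 (SD, n = 4), a difference of -1.13 log2 units (SE 0.12), or 2.18-fold in signal.

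Cxcl12 was not low in number 1. Its brighter probe set stood at 6.13, 6.03 and 5.99 in control 1, 2 and 3 and at 6.25, 6.20 and 6.10 in PMA 1, 2 and 3. The second probe set stood at 5.01, 4.61 and 4.61 in the controls and at 5.34, 4.89 and 4.59 in the PMA arrays. With both probe sets the number 1 array was the highest of its group. The difference of number 1 from numbers 2 and 3 was 0.11 log2 units (SE 0.068) for the brighter and 0.50 (SE 0.092) for the second, so the probe sets agree in sign and differ in size.

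**Figure D1:**
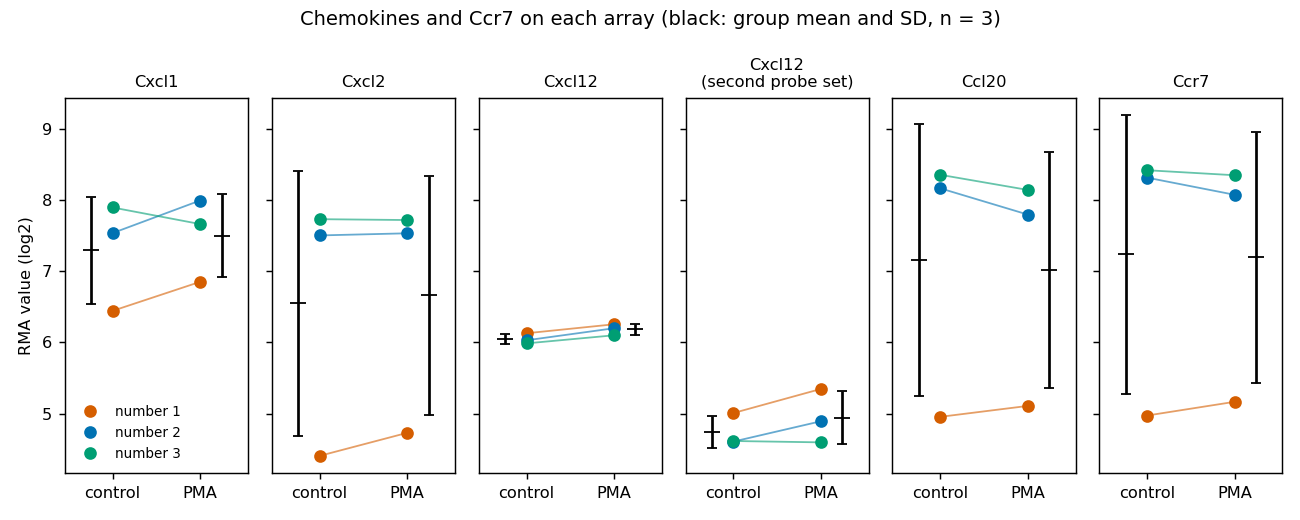
RMA values (log2, vertical axis) of the 5 genes in control and PMA arrays, with 1 point per array coloured by replicate number and a line joining the arrays of a number; black marks give each group's mean and SD (n = 3). Cxcl2, Ccl20 and Ccr7 lie between 4.40 and 5.16 in number 1 and between 7.51 and 8.42 in numbers 2 and 3, while the lines from control to PMA are short.

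Among all 1246 probe sets, 7 were lower by over 3 log2 units in number 1 (0.562%), and 5 of these 7 stood for named genes. Of those 5, Ccr7 was the lowest, followed by Wnt5a, Lgals4, Ccl20 and Cxcl2. The probe sets just short of 3 log2 units began with an unnamed one at -2.77. Cxcl1 ranked 49 of 1246 from the lowest, and a drop of over 1 log2 unit was seen for 56 probe sets (4.49%). The differences were measured separately in both groups. Ccr7 gave -3.40 among control and -3.05 among PMA arrays, Ccl20 -3.31 and -2.87, Cxcl2 -3.22 and -2.90, and Cxcl1 -1.27 and -0.98. All 4 genes were thus nearer to the other arrays in PMA 1 than in control 1.

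The promoters of the chemokines are shown as sequence background. In the RefSeq promoter table (build GRCm38.p6) 4 of the 5 genes matched; Ccr7 did not. Each line gives the 120 bases before the annotated start site, 5′ to 3′ on the plus strand. Capitals mark matches to GGGNNNTTCC, a form of the NF-kB (kB) motif, on either strand. The windows are chr5:90891125-90891244 for Cxcl1, chr5:90903779-90903898 for Cxcl2, chr1:83116646-83116765 for Ccl20 and chr6:117168415-117168534 for Cxcl12.
Cxcl1: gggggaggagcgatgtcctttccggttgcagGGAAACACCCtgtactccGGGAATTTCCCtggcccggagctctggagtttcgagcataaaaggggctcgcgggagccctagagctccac
Cxcl2: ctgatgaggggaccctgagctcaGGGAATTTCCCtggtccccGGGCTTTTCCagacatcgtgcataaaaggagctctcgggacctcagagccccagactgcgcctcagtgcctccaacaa
Ccl20: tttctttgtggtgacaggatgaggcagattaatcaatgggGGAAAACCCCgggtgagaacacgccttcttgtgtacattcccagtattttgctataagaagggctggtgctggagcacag
Cxcl12: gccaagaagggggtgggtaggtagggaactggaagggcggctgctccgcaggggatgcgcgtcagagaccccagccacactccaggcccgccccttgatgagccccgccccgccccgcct

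Cxcl1 and Cxcl2 are neighbours on chromosome 5 and share the 14 bases gggaatttccctgg, which begin 71 bases before the start of Cxcl1 and 97 before that of Cxcl2. The motif matches this stretch on both strands, in positions that overlap by all but 1 base. Cxcl1 has another match 89 bases before its start and Cxcl2 another 78 before its start. Ccl20 has its single match 80 bases before its start, on the other strand. No match lies in the 250 bases before the start of Cxcl12. Over all 32851 promoters in that table, 4.65% held a match in those 250 bases and 2.42% in the 120 bases printed. The phorbol ester (TPA) response element TGANTCA, the AP-1 motif, had no match in the 250 bases of any of the 4 genes and was held by 6.75% of all promoters. A match is a string of letters and says nothing on binding in these cells. Other genes low in number 1, such as Wnt5a and Lgals4, were not looked up for matches. Whether matches go with the number 1 values was not tested.

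No difference between PMA and control arrays passed the test for the 4 genes tested. For Cxcl1 the difference of PMA minus control was 0.41 in number 1, 0.46 in number 2 and -0.23 in number 3. Its means were 7.29 ± 0.76 in control and 7.50 ± 0.59 in PMA arrays (SD, n = 3), a difference of 0.21 log2 units (SE 0.48). The sign turned in number 3 and the groups overlapped.

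For Cxcl2 the 3 numbers gave differences of 0.32, 0.030 and -0.012. Its means were 6.55 ± 1.86 and 6.66 ± 1.68, a difference of 0.11 (SE 1.24, adjusted p = 0.999 by limma). Only number 1 moved by more than 0.1 log2 units. Ccl20 gave 0.15, -0.37 and -0.21 in numbers 1, 2 and 3, with means of 7.16 ± 1.91 and 7.02 ± 1.66 and a difference of -0.14 (SE 1.25, adjusted p = 0.999 by limma). Ccr7 gave 0.19, -0.24 and -0.070, with means of 7.24 ± 1.96 and 7.20 ± 1.77 and a difference of -0.039 (SE 1.30, adjusted p = 0.999 by limma). Both genes were higher with PMA in number 1 and lower in numbers 2 and 3. Over numbers 2 and 3 alone the PMA difference was 0.11 for Cxcl1, 0.0088 for Cxcl2, -0.29 for Ccl20 and -0.16 for Ccr7.

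Cxcl12 was the one gene of the 5 whose stated probe set was higher with PMA in all 3 numbers, by 0.13, 0.17 and 0.11. Its means were 6.05 ± 0.073 and 6.18 ± 0.078, a difference of 0.14 log2 units (SE 0.073, adjusted p = 0.999 by limma). The groups overlapped, since PMA 3 lay under control 1. The second probe set gave 0.34, 0.28 and -0.019, a mean of 0.20 (SE 0.22). Of all probe sets, 10.4% were higher with PMA in all 3 numbers and 12.7% lower in all 3.

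After Benjamini-Hochberg adjustment limma called 0 of the 5 probe sets of Cxcl2, Cxcl12, Ccl20 and Ccr7, beside a background of 0% of the 1246. Of all probe sets 4 had an unadjusted p under 0.05, and none of these belonged to those 4 genes. Fitted with the replicate number as a block, which removes the distance of number 1, the call was again 0 of 5 beside 0% of all, with 42 of all probe sets at an unadjusted p under 0.05. Among those 42 was the second Cxcl12 probe set (unadjusted p = 0.0389, adjusted p = 0.992). The block narrowed the 95% intervals of the difference. They ran from -0.070 to 0.49 for Cxcl1, -0.071 to 0.30 for Cxcl2, -0.0097 to 0.28 for Cxcl12, -0.36 to 0.079 for Ccl20 and -0.24 to 0.16 for Ccr7. All 6 probe sets of these genes had blocked intervals within 1 log2 unit of 0, as did all 1246. Without the block 2 of the 6 did.

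**Figure D2:**
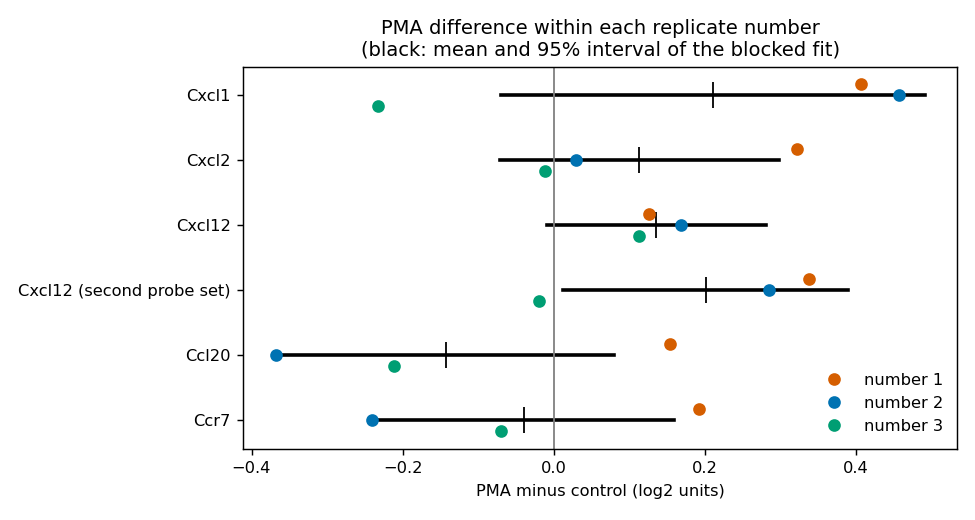
PMA minus control (log2 units, horizontal axis) within each replicate number for the 6 probe sets of the 5 genes; points are numbers, black ticks the mean and black bars the 95% interval of the fit with the number as a block. The brighter Cxcl12 probe set has 3 points between 0.11 and 0.17, and the points of the other probe sets lie on both sides of 0.

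Within number 1 all 5 genes were higher in the PMA than in the control array, against 3 of 5 in number 2 and 1 of 5 in number 3. Of all probe sets 48.9%, 50.4% and 46.7% were higher with PMA in those numbers. The 95th percentile of absolute differences over all probe sets was 0.33 in number 1, 0.34 in number 2 and 0.20 in number 3. Cxcl1 is counted among the 5 genes, but it was chosen for its PMA difference and is not set against this percentile. Ccl20 exceeded it in numbers 2 and 3, lower with PMA in both. Cxcl2, Ccr7 and the brighter probe set of Cxcl12 did not exceed it in any number. The second Cxcl12 probe set, at 0.337 in number 1, lay just above the percentile of 0.332 there. The PMA difference in number 1 minus that in numbers 2 and 3 was 0.44 (SE 0.22) for Ccl20, 0.35 (SE 0.18) for Ccr7, 0.31 (SE 0.18) for Cxcl2 and 0.29 (SE 0.25) for Cxcl1. It was -0.015 (SE 0.13) for Cxcl12. By limma 0 of the 4 genes other than Cxcl1 passed for this interaction, with adjusted p of 0.743 for Ccl20 and Ccr7, 0.770 for Cxcl2 and 0.982 for Cxcl12. The background was 1 unnamed probe set of 1246 (0.0803%).

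Cxcl2, Ccl20 and Ccr7 had nearly the same profile over the 6 arrays. All 3 were selected as lying among the largest number 1 differences, so short distances between them follow largely from that choice. With each gene centred on its own mean, the root mean square distance was 0.091 log2 units between Ccl20 and Ccr7, 0.12 between Cxcl2 and Ccr7 and 0.14 between Cxcl2 and Ccl20. Cxcl1, with its smaller number 1 difference, lay 0.92 from Cxcl2. All 3 also shared a small step inside the larger one, each being higher in number 3 than in number 2 in both groups, by 0.10 to 0.35. Of all probe sets 21.6% had that order.

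Outside the 5 genes, the closest profile to Ccr7 was that of Wnt5a, a ligand of non-canonical Wnt signalling, at 0.076 log2 units, next to a median of 1.57 over all named genes. The galectin Lgals4 at 0.17 and the cartilage proteoglycan gene Acan at 0.31 came next. Wnt5a and Lgals4 were also the 2 closest to Ccl20 (0.14 and 0.19) and to Cxcl2 (0.11 and 0.20), followed by Acan (0.27) and the mannose receptor Mrc1 (0.24) respectively. Wnt5a stood at 5.66 and 5.73 in number 1 and between 8.77 and 9.03 elsewhere. Like Ccl20, Wnt5a and Lgals4 were read by probe sets with the suffix s, which marks binding to several transcripts. Closest to Cxcl1 were Csgalnact1, which starts chondroitin sulfate chains, at 0.12, and Il1rl1, the IL-33 receptor, and the core fucosyltransferase Fut8, both at 0.16. Closest to Cxcl12 were B3galt1 at 0.024, Galntl6 at 0.032 and Fut4 at 0.038, where the median over the named genes was 0.14. Neighbours could only come from the 908 genes named here. B3galt1 and Galntl6 had values from 3.33 to 3.63, dimmer than the lower quartile on all arrays. Over 6 arrays that fall into 2 clusters such distances mostly state the size of the number 1 step.

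**Figure D3:**
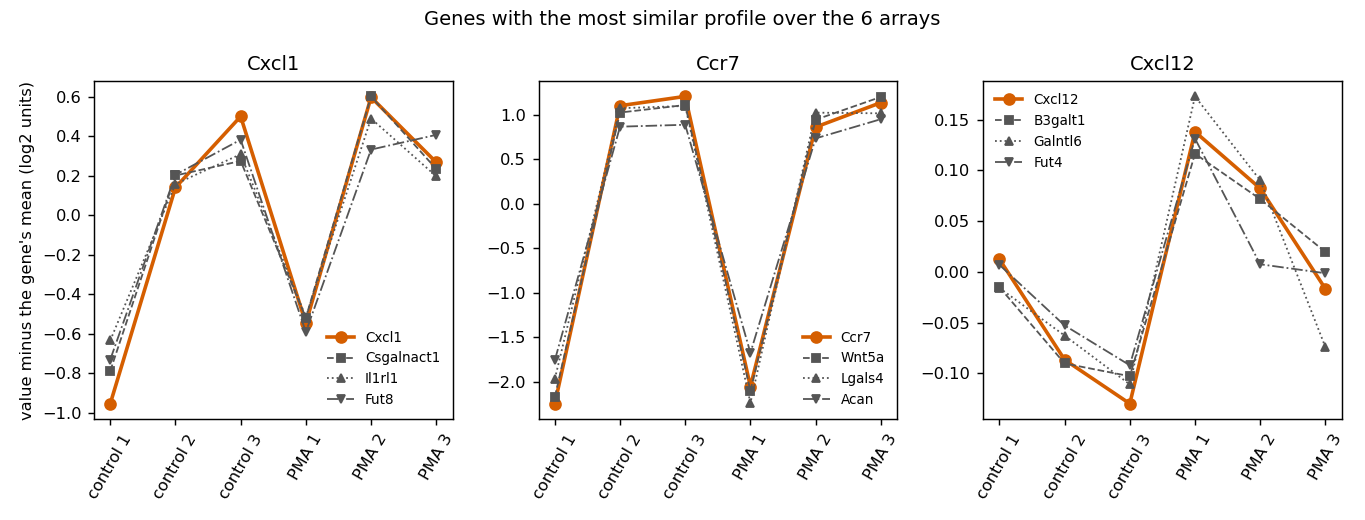
Value minus the gene's own mean over the 6 arrays (log2 units; vertical scales differ) for Cxcl1, Ccr7 and Cxcl12 in orange and, in grey, the 3 genes with the most similar profile; lines only guide the eye between arrays. Ccr7 and Wnt5a lie 0.076 log2 units apart on average (root mean square).

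None of the other measured chemokines differed by 3 log2 units in number 1, but the members were chosen with this contrast known. The tests of this contrast set 2 arrays against 4 and speak for these arrays only. Apart from the members, 8 CXC ligands were measured, with 2 called higher and 1 lower by limma with Benjamini-Hochberg adjustment, and a median difference of 0.073 log2 units. Over all probe sets 27.5% were called higher and 14.1% lower, with a median of 0.079. Normalizing the arrays again turned this split from 343 higher and 176 lower to 278 and 232. Cxcl15, the lung-specific chemokine lungkine, averaged 6.96 in number 1 and 5.31 elsewhere, higher by 1.65 (SE 0.22, adjusted p = 0.000121). Cxcl14 was higher by 0.36. The B cell chemokine Cxcl13 was lower, at 4.59 against 5.37, by -0.78 (SE 0.12, adjusted p = 0.000314). Cxcl5, another ligand of Cxcr2, lay between 2.93 and 3.12 on every array.

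Of 17 other CC, XC and CX3C ligands, 3 were called higher and 2 lower in number 1, beside 27.5% and 14.1% of all probe sets, with a median of 0.036. Ccl5, which attracts T cells and monocytes, was lower by -0.52 (SE 0.071, adjusted p = 0.000154), and the membrane-bound chemokine Cx3cl1 and the epithelial chemokine Ccl27a were higher by 0.43 and 0.40. The call of Cx3cl1 was lost when the arrays were quantile-normalized again. None of these 25 other ligands passed for PMA by limma, with or without the block. Unadjusted p under 0.05 was met by 0 without the block and by 1, Cxcl13 at 0.24, with it. The largest PMA differences among the CC, XC and CX3C ligands were 0.13 for Ccl22 and 0.094 for the eosinophil chemokine Ccl11, and among the CXC ligands 0.24 for Cxcl13 and -0.077 for the platelet chemokine Pf4.

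**Figure D4:**
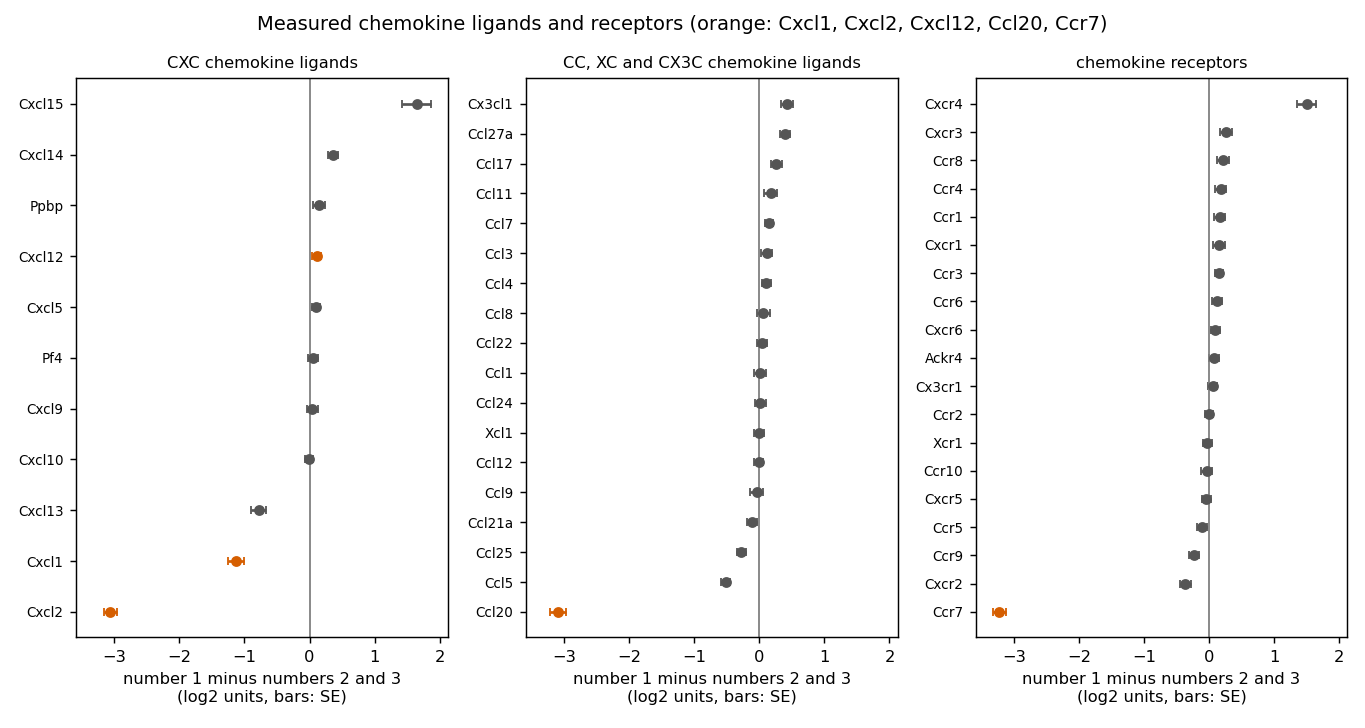
Number 1 minus numbers 2 and 3 (log2 units, horizontal axis; bars are SE) for every measured chemokine ligand and receptor of the lists, with the 5 genes in orange. Ccr7, Ccl20 and Cxcl2 lie beyond -3, Cxcl1 at -1.13, and the lowest of the others is Cxcl13 at -0.78. The 5 genes were chosen with this contrast known.

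Of 18 other chemokine receptors, 2 were called higher and 2 lower in number 1, no larger a share than the 27.5% and 14.1% of all probe sets, with a median difference of 0.087. The Cxcl12 receptor Cxcr4 stood at 6.25, 4.52 and 4.91 in control 1, 2 and 3 and at 6.41, 5.25 and 4.65 in PMA 1, 2 and 3. Both number 1 arrays were above the other 4, and the difference was 1.50 log2 units (SE 0.15, adjusted p = 1.62e-05 by limma). Cxcr2, the receptor of Cxcl1 and Cxcl2, stood at 5.54, 5.87 and 6.12 in controls and 5.70, 6.02 and 5.94 in PMA arrays. It was lower in number 1 by -0.37 (SE 0.087, adjusted p = 0.00556 by limma), and its probe set carries the suffix x for possible cross-hybridization.

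The measured partners of Ccl20 and Ccr7, which were Ccr6 and Ccl21a, showed no called difference. Ccl19 was not among the measured ligands. Ccr6, the receptor of Ccl20, lay between 5.61 and 5.88 on all arrays, with a difference of 0.12 (SE 0.078, adjusted p = 0.259 by limma) in number 1. Ccl21a, a ligand of Ccr7, lay between 5.60 and 5.84, with -0.11 (SE 0.072, adjusted p = 0.231 by limma). Both probe sets carry the suffix s. The call of Cxcr3, higher by 0.26, was lost with either other scaling of the arrays. For PMA limma called 0 of the 18 receptors with or without the block, and 0 had an unadjusted p below 0.05 in either fit. Cxcr4 at 0.21 and Ccr1, a receptor of inflammatory CC chemokines, at -0.14 had the largest differences.

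Among 20 measured cytokines and receptors upstream of epithelial chemokines, 7 were called higher and 0 lower in number 1, beside 27.5% higher and 14.1% lower over all probe sets. Quantile-normalizing again gave 6 and 1. The largest differences were 2.98 for Il17rd, a receptor-like modulator of IL-17 and FGF signalling, 2.17 for Csf2, which encodes GM-CSF, and 1.78 for Il18, an epithelial cytokine of the IL-1 family. For PMA limma called 0 of the 20 with or without the block, and 0 had an unadjusted p below 0.05 in either fit. Il1b at 0.20 and the co-receptor Il1rap at -0.17 had the largest differences.

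Of 31 NF-kB, AP-1 and phorbol ester response genes 3 were measured. In number 1 the AP-1 component Junb was lower by -0.91 (SE 0.067, adjusted p = 1.30e-06 by limma). The adhesion molecule Icam1, a target of NF-kB, was higher by 0.74 (SE 0.13, adjusted p = 0.000750 by limma). Jund differed by -0.23 (adjusted p = 0.0520 by limma). It passed when arrays were set to a common median and not when they were quantile-normalized again (-0.16, adjusted p = 0.209 by limma). For PMA limma called 0 of the 3, and 0 had an unadjusted p below 0.05. Under the block Junb, at -0.16, had such a p.

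Of 12 proteoglycan genes and glycosaminoglycan carriers that can hold chemokines at the surface, 5 were called higher and 0 lower in number 1, beside the same 27.5% and 14.1%. Normalizing again, by either scaling, gave 4 and 1. Vcan at 1.15, the basement membrane proteoglycan Agrn at 1.08 and the syndecan Sdc4 at 1.07 had the largest differences. For PMA limma called 0 of the 12, and 0 had an unadjusted p below 0.05. Under the block it called 0 as well, and 1 had such a p. The hyaluronan receptor Cd44 at 0.23 and Vcan at 0.20 had the largest PMA differences.

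Markers of other cell types also differed with number 1. Of 6 endothelial and fibroblast markers 4 were called lower, beside 14.1% of all probe sets, among them Dcn at -2.31, Pecam1 at -1.37 and Vcam1 at -1.31. The 1 called higher, beside 27.5% of all, was Pdgfrb, a receptor of mural cells and fibroblasts, at 0.78. Pdgfra was not called (0.20, adjusted p = 0.0930 by limma). The summed linear signal of the 6 was 686 to 863 in number 1 and 1786 to 2973 in numbers 2 and 3. Bright genes weigh most in such a sum, and in numbers 2 and 3 Vcam1 averaged 10.0 and Dcn 9.97, against 6.48 for Pecam1. Of 10 leukocyte markers 1 was called lower and 0 higher, beside the same shares of all probe sets, and normalizing again, by either scaling, gave 2 and 0. That 1 was Mrc1, at -2.74, and the summed signal was 300.4 to 339 in number 1 and 496 to 539 elsewhere. Mrc1 made up this gap, since the other 9 summed to 275 to 295 in number 1 and 280.0 to 297 elsewhere. The 2 lung epithelial markers summed to 58.6 to 60.1 in number 1 and 48.8 to 55.2 elsewhere, with Sftpa1 called higher by 0.52. For PMA limma called 0 of the 10 leukocyte, 0 of the 6 endothelial and fibroblast and 0 of the 2 lung epithelial markers, with or without the block. Without it Siglech, at -0.15, was the 1 marker with an unadjusted p below 0.05. With it Siglech, Mrc1 and Pdgfrb had such a p. Mrc1 at 0.38, Pdgfrb at -0.22 and Vcam1 at 0.13 were the other largest PMA differences. The part of these cell type markers in the low Cxcl2, Ccl20, Ccr7 and Cxcl1 signals of number 1 was not tested. The sample titles of number 1 carry no letter, while those of numbers 2 and 3 end their short names in A and B. What the number or the letter stands for is not in the labels.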

How the data were processed

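Per the labels' protocols, total RNA was extracted with Trizol and labelled as biotinylated cRNA for Affymetrix arrays. The authors deposited log2 values from RMA, per the submitters' processing notes; RMA subtracts a modelled background, quantile-normalizes the arrays and combines the probes of a set. The RMA version, the array name and filters: not given in the sources used here. Values were used as deposited. Quantile normalization hides any shift common to all transcripts.

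Probe sets were named through the RefSeq accession in their ID (962 of 1246, giving 908 genes; table of assembly GRCm38.p6). Where a gene had several, the one with the highest mean stood for it. Ccl20's carries the suffix s, those of Cxcl2 and the brighter Cxcl12 the suffix a, and the others none.

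All comparisons were fitted over the 1246 probe sets with limma 3.58.1 in R 4.3.3 (lmFit, eBayes), with Benjamini-Hochberg adjustment and a threshold of 0.05. SE is the moderated standard error. Number 1 was compared with numbers 2 and 3 with PMA as a term. The number of arrays limits precision. The blocked PMA fit and the number 1 fit were tested on simulated data. The unblocked PMA fit and the interaction fit were not.

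Both groups carry replicate numbers 1 to 3 in their sample names. Deviations from the group mean correlated across probe sets at 0.956, 0.815 and 0.912 for arrays of the same number, so the numbers were also used as a block. With number 1 set aside, number 2 minus number 3 in control and in PMA correlated at 0.041, so little pairing was seen beyond the distance of number 1.

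Members and gene lists were chosen with earlier results of these data known. Named genes were the members, their receptor or ligand partners, in each list the 3 largest absolute differences of number 1 and the 2 largest of PMA, and for each member the 3 genes of nearest profile. Cxcl5 was added after its values were seen. Alternatives were other scalings, a filter on low means, a variance trend, the block, and leaving out arrays.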

Additional observations from a re-analysis of the deposited data

How the results depend on the processing

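With the replicate block, 0 probe sets were called for PMA, as without it, and no gene's call changed; the blocked PMA differences equal the unblocked ones (0.21 for Cxcl1, -0.14 for Ccl20). The count of PMA calls was 0 under every alternative run, with 0 to 44 probe sets at an unadjusted p under 0.05 by limma. Leaving out 1 array unbalances the numbers, so the PMA difference then ranged from -0.21 to 0.54 for Cxcl1, -0.96 to 1.08 for Cxcl2, 0.10 to 0.18 for Cxcl12, -1.25 to 0.81 for Ccl20 and -1.17 to 0.98 for Ccr7. The sign turned without control 1 or PMA 2 for Cxcl1, without control 1, PMA 2 or PMA 3 for Cxcl2, and without control 2, control 3 or PMA 1 for Ccl20 and Ccr7. For number 1 minus numbers 2 and 3 the count of calls ran from 463 to 538 under other settings and from 403 to 543 with 1 array left out. Among control arrays only the difference was -3.22 for Cxcl2 and -3.40 for Ccr7, and among PMA arrays only -2.90 and -3.05. These were also the extremes with 1 array left out. Leaving out PMA 1 or control 1 gives the same values by construction, so this is no second check. The mean of both Cxcl12 probe sets gave 0.31. The interaction of PMA with number 1 had 1 call as deposited and 0 when arrays were quantile-normalized again or a variance trend was used. Signal over background is unknown, so how far the low values of number 1 lie above it is unknown too.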
